A study of Mus musculus with 35 samples.

Results

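The comparison described here asks whether the striatal transcriptome of wild-type mice differed after long peripheral treatment with a control antisense oligonucleotide (ASO) in place of saline. Its members were the 11 Htt+/+ libraries, of 35 in the series, from mice labelled as treated with control ASO (n = 5; mice GU4, GV3, HC3, HD4 and HI1) or saline (n = 6; mice GV4, HE3, HM3, HN3, HQ3 and HT4), with 1 library per mouse. All 11 mice were females labelled C57BL6/J and carried no Htt knock-in allele. Control ASO mice received 50 mg/kg weekly by intraperitoneal injection and saline mice 4 µL/g. Injections began at 2 months and ended with sacrifice at 10 months, when control ASO mice were 300 to 302 days old and saline mice 301 to 303 days old. The mice were perfused with buffered saline before the right hemistriatum was taken. Only 1 control sequence was used, so effects of that sequence, of the ASO chemistry and of handling an oligonucleotide in place of saline cannot be told apart.

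ASOs of this class are gapmers: a DNA core is flanked by sugar-modified wings on a phosphorothioate backbone, and the core recruits RNase H1 to cut a matching RNA. A control ASO is chosen to match no mouse transcript, and it is injected so that consequences of the chemistry can be separated from loss of the target. Phosphorothioate oligonucleotides bind many proteins, enter cells by endocytosis and can engage innate immune sensors. After peripheral injection they reach liver, kidney and fat but are held back by the endothelium of the blood-brain barrier. The striatum is made mostly of medium spiny neurons, and the bulk tissue also holds glia and vessels. In such samples fewer cells of a type and less RNA per cell cannot be told apart.

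The authors' expected counts summed to between 33673361 and 36266000 per Htt+/+ library in these groups. Values are given as CPM, the share of a library's scaled total count on the usual per-million scale. Medium spiny neuron markers were abundant in every mouse: Drd1a, the D1 dopamine receptor, ranged from 277 to 325 CPM, and Ppp1r1b, which encodes DARPP-32, from 1410 to 1930 CPM. Slc17a7, the vesicular glutamate transporter of cortical neurons, ranged from 7.49 to 35.1 CPM on control ASO and from 5.40 to 50.3 on saline, a wide range in both groups. Htt, listed as Hdh, is the target of the other ASO of the series. It was at 101, 77.6, 84.7, 92.7 and 92.7 CPM in GU4, GV3, HC3, HD4 and HI1, and from 74.5 to 103 CPM (median 87.2) on saline. The groups overlapped fully (log2 fold change −0.0041, SE 0.097, exact permutation p = 0.987).

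A pair of control ASO libraries stood apart from the others in ways that touch several results. GU4 carried transcripts of the choroid plexus, the epithelium that makes cerebrospinal fluid. Ttr, the transthyretin gene and the leading transcript of that epithelium, was at 1460 CPM in GU4, at 25.9, 34.1, 32.2 and 29.4 CPM in the other control ASO mice, and at 28.5 to 69.1 CPM on saline. The same held for Kl, which encodes klotho, at 58.0 CPM in GU4 against 4.40 to 6.24 in the other control ASO mice and 3.87 to 7.91 on saline. Folr1, a folate receptor, was at 10.6 CPM in GU4 against at most 1.04 in the other control ASO mice and 1.13 on saline. Kcne2, a potassium channel subunit, was at 7.01 CPM against at most 0.267 and 0.470. Enpp2 (910 CPM against at most 309 and 343) and Clic6 (47.2 against at most 28.3 and 29.7), which striatal tissue also expresses, were high in GU4 as well. Over the 22 choroid plexus genes tested, the median log2 fold change of control ASO against saline was 0.57 with GU4 and −0.026 without it.

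**Figure D1:**
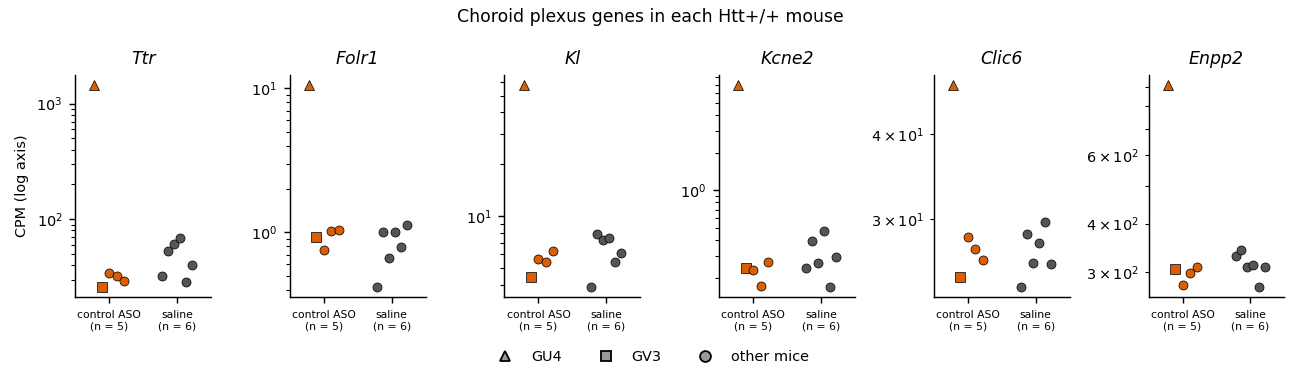
CPM (log axis) of 6 choroid plexus genes in each Htt+/+ mouse, by group (control ASO, 5 mice; saline, 6 mice), with GU4 as a triangle and GV3 as a square. GU4 lies above all 10 other mice for each gene (Ttr 1460 CPM against at most 69.1), and without it the groups overlap.

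The second library, GV3, stood apart for vascular genes. Vwf, which encodes the clotting factor that endothelium secretes, was at 28.9, 101, 33.1, 33.8 and 32.2 CPM in GU4, GV3, HC3, HD4 and HI1, and at 27.1 to 33.5 CPM (median 30.6) on saline. A score was formed for each gene list as the mean log2 CPM difference of a mouse from the saline mice. For the 19 endothelial genes it was 0.58 in GV3 and between −0.066 and 0.10 in the other 4 control ASO mice, against −0.086 to 0.076 on saline. GV3 also had the most haemoglobin RNA (Hbb-b1, 234 CPM). That GV3 stands apart was seen in these data, whereas the choroid plexus transcripts of GU4 were known from earlier results. The main counts over all genes are therefore given with all 11 mice and without GU4, and counts of vascular genes also with GV3 left out. Counts for other lists use all 11 mice unless stated.

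No gene passed the test. Among 17639 genes tested by limma after voom, with Benjamini-Hochberg adjustment over all of them, 0 (0%) had an adjusted p under 0.05, and the smallest was 0.26. At an unadjusted p under 0.05 there were 866 genes higher on control ASO (4.91%) and 1214 lower (6.88%). Without GU4, 0 of 17709 genes (0%) passed (smallest limma adjusted p 0.41), and 830 (4.69%) were higher and 1071 (6.05%) lower at an unadjusted p under 0.05. The quasi-likelihood test of edgeR called 0 genes and had 2165 with an unadjusted p below 0.05. DESeq2, run with GU4 included, called 4 genes, Dab2, Slco1a4, Slc9a3r1 and Jsrp1, each at an adjusted p of 0.0359. The groups did not overlap for 37 genes higher on control ASO (0.21%) and 58 lower (0.329%). Without GU4 these were 83 (0.471%) and 126 (0.714%). For a single gene, a random split of the mice leaves no overlap, in either direction, with a probability of 0.00433, or 0.00952 without GU4.

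The intervals of the main fit were narrow for most expressed genes. That fit had no term for GC content or for lane, which was read from the sample titles. The intervals therefore do not cover an imbalance of the groups in either. Over 15083 genes averaging 1 CPM or more across the 11 mice, the 95% interval of the log2 fold change reached a median of 0.127 to either side. It lay within 0.5 either side of 0 for 13692 of them (90.8%) and within 1 for 14841 (98.4%). An absolute log2 fold change over 0.5 was estimated for 128 genes (133 without GU4) and over 1 for 43 (44 without GU4).

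Among the genes of smallest p in the higher direction, none passed limma's adjusted test. Slco1a4, the organic anion transporter Oatp1a4 of brain endothelium, was at 77.8, 83.2, 71.1, 69.3 and 70.8 CPM in GU4, GV3, HC3, HD4 and HI1 and at 57.7 to 68.4 CPM (median 62.4) on saline. The groups did not overlap (log2 fold change 0.25, SE 0.053, limma adjusted p = 0.26; exact permutation p = 0.00433, the smallest that 5 against 6 mice allow). Without GU4 the log2 fold change was 0.23 (limma adjusted p = 0.422), and without GU4 and GV3 it was 0.17.

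Dab2, an adaptor that links receptors of the low-density lipoprotein family to clathrin, was at 14.1, 10.4, 9.69, 9.02 and 11.6 CPM in the control ASO mice in the same order. On saline it ranged from 7.78 to 8.65 CPM (median 8.06), below every control ASO mouse. Its log2 fold change was 0.41 (SE 0.090, limma adjusted p = 0.26), and it was 0.31 without GU4, the highest mouse.

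S100a11, a small calcium-binding protein, was at 3.35, 5.14, 3.52, 3.94 and 3.95 CPM on control ASO and at 2.15 to 3.02 CPM (median 2.80) on saline, again without overlap. It was the only gene averaging 1 CPM or more that was higher on control ASO by a log2 fold change of at least 0.5 with no overlap both with and without GU4 (0.53, SE 0.14, limma adjusted p = 0.313; 0.59 without GU4). Thbd, thrombomodulin, which endothelium uses to turn thrombin towards anticoagulation, was at 10.9, 17.3, 10.2, 11.5 and 11.5 CPM against 7.38 to 11.2 CPM (median 8.67) on saline. Here the highest saline mouse lay above 2 of the 5 control ASO mice (log2 fold change 0.44, SE 0.11, limma adjusted p = 0.313; 0.47 without GU4).

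Wrn, a RecQ helicase of DNA repair, was at 19.6, 16.8, 18.5, 18.8 and 19.2 CPM against 14.0 to 17.5 CPM (median 15.7) on saline, with GV3 below the highest saline mouse (log2 fold change 0.26, SE 0.059; 0.23 without GU4). Chrm5, the M5 muscarinic receptor, had the largest fold among the 10 genes of smallest p in the higher direction without GU4 (0.84, SE 0.20, limma adjusted p = 0.422). It was at 0.809 CPM in GU4 and at 1.44, 1.41, 1.19 and 1.57 CPM in the other 4 mice, against 0.646 to 1.02 CPM (median 0.752) on saline. The rest of these 10 were A130022J15Rik (Eogt, an O-GlcNAc transferase of secreted proteins), Xlr, EG624866 (Lekr1) and 1700028K03Rik, with log2 fold changes of 0.15, 0.46, 0.32 and 0.35 without GU4.

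In the lower direction, too, none of the genes of smallest p passed limma's adjusted test. Slc9a3r1, the scaffold NHERF1 that anchors transporters at the membrane, was at 41.9, 41.1, 39.2, 40.4 and 38.6 CPM on control ASO and at 44.1 to 51.3 CPM (median 47.3) on saline. No control ASO mouse reached the lowest saline mouse (log2 fold change −0.25, SE 0.055, limma adjusted p = 0.26; −0.26 without GU4). Vegfb, a growth factor of the VEGF family, was at 32.6, 30.4, 28.8, 31.1 and 31.2 CPM against 34.3 to 38.9 CPM (median 34.7), also without overlap (log2 fold change −0.22, SE 0.056; −0.24 without GU4).

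Jsrp1, a protein of the junction between surface and sarcoplasmic membranes in muscle, had the smallest p of all genes. It was at 2.37, 3.57, 2.62, 3.19 and 3.06 CPM on control ASO and at 3.57 to 5.61 CPM (median 4.26) on saline, with GV3 level with the lowest saline mouse (log2 fold change −0.58, SE 0.12, limma adjusted p = 0.26; −0.50 without GU4). BC037520 was at 6.59, 6.31, 5.22, 6.81 and 5.59 CPM against 6.91 to 8.80 CPM (median 8.26), without overlap (log2 fold change −0.39; −0.42 without GU4). The remaining genes of the 10 in the lower direction were 1500005I02Rik (Btbd17), Tubb4 (Tubb4a, a beta-tubulin), Guk1 (guanylate kinase), Mlycd (malonyl-CoA decarboxylase), Ssh3 (a cofilin phosphatase) and Adprhl2 (an ADP-ribosyl hydrolase), from −0.41 for 1500005I02Rik to −0.21 for Guk1 without GU4.

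**Figure D2:**
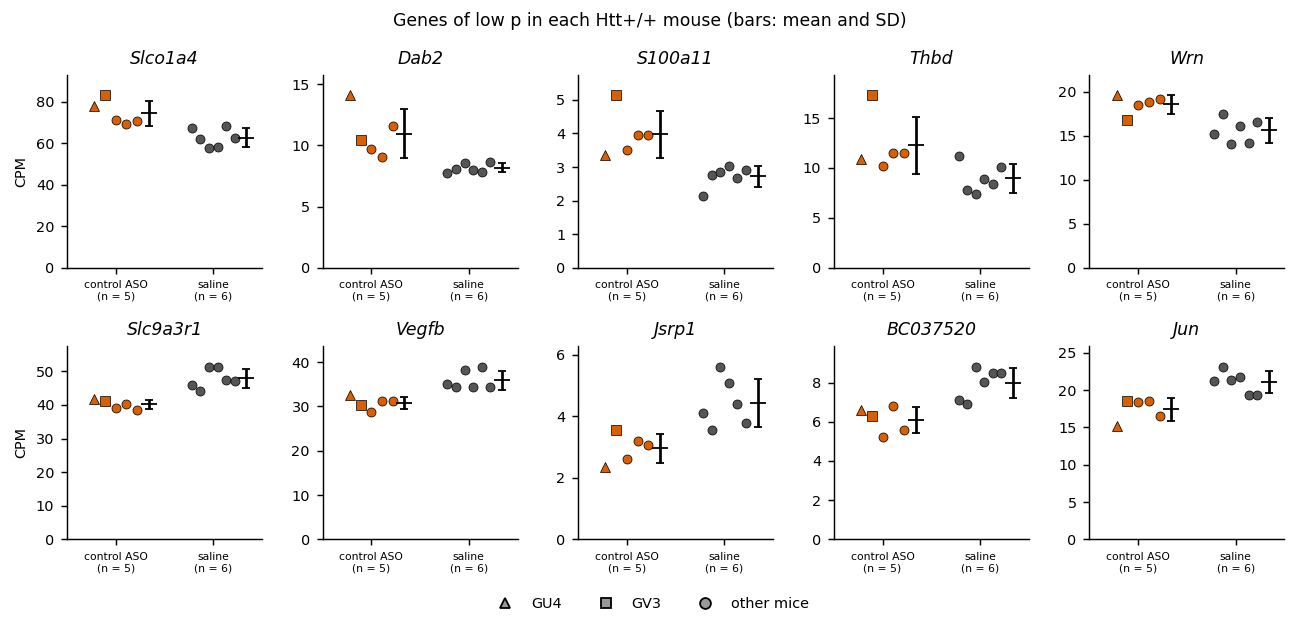
CPM (linear axes from 0) of 10 genes of low p in each Htt+/+ mouse, with the mean and SD of each group beside the points, GU4 as a triangle and GV3 as a square. Slco1a4, Dab2, S100a11, Slc9a3r1, Vegfb, BC037520 and Jun show no overlap between the groups, while Thbd, Wrn and Jsrp1 do; limma called none of the 10, and DESeq2 called Slco1a4, Dab2, Slc9a3r1 and Jsrp1.

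The largest fold changes came from genes with libraries listed at 0. Gdf1, a growth factor of the TGF-beta family, was listed at 0 in HC3 and HI1 and at 0.000558, 0.289 and 2.88 CPM in GU4, GV3 and HD4, against 4.99 to 16.3 CPM (median 9.68) on saline. The groups did not overlap, which fixes the exact permutation p at 0.00433 for any such gene. Gdf1 was named for its fold and its lack of overlap, so that value adds nothing to them. By limma, p was 0.0502 before adjustment and 0.424 after it. Gdf1 is known to be made from a transcript shared with Cers1, listed as Lass1 and chosen here after its values were seen. Lass1 was at 58.3, 63.7, 63.4, 65.7 and 57.0 CPM on control ASO and at 55.6 to 69.9 CPM (median 61.9) on saline, with overlapping groups (log2 fold change −0.010). RSEM divides reads that fit several transcripts by estimation, so values of Gdf1 rest on that division. 2510006C20Rik, with no library at 0, was the other gene lower by at least 0.5 without overlap, at 0.634 to 1.19 CPM on control ASO against 1.32 to 2.33 on saline (limma adjusted p = 0.459). AK039536 had the highest fold among genes averaging 1 CPM or more (2.95, SE 1.0), but its groups overlapped, with 4.41 to 11.4 CPM on control ASO and 0 to 14.6 on saline (exact permutation p = 0.307). Its log2 fold change was 0.35 in DESeq2, 0.36 in edgeR and 1.79 with lane as a covariate, and that of Gdf1 was −3.97, −3.95 and −3.27.

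Genes of the blood-brain barrier and of blood were, beside the choroid plexus, the lists that lay farthest above 0. Of 19 endothelial genes tested, 8 were higher and 0 lower at an unadjusted p under 0.05, beside 4.91% and 6.88% of all genes, and 0 passed limma's adjusted test, while DESeq2 called Slco1a4 (median log2 fold change 0.18, against 0.0021 for all genes). Those 8 included Slco1a4 and genes of the junctions that seal the barrier. Ocln, occludin, was at 13.1, 12.7, 11.9, 10.3 and 11.6 CPM on control ASO and at 9.37 to 11 CPM (median 9.93) on saline, with HD4 below the highest saline mouse (log2 fold change 0.25, SE 0.074, limma adjusted p = 0.333; 0.22 without GU4). Tjp1, the scaffold ZO-1, had a log2 fold change of 0.11 and Tie1, an endothelial receptor kinase, of 0.23. Cdh5, the cadherin of endothelial junctions, and Ly6c1, a surface antigen of brain endothelium, had 0.18 each, and Abcb1a, the efflux pump P-glycoprotein, had 0.11. Of the defining markers, Pecam1 and Flt1 lay closer to 0 and changed side without GV3: Pecam1 was 0.093 and −0.037 without GV3, and Flt1 0.099 and −0.020. Cldn5, claudin-5, lay below 0 at −0.10, and was −0.28 without GV3 and 0.019 after correction for GC content.

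Much of that list's shift came from GV3. Without GU4, 7 endothelial genes were higher and 0 lower (median 0.17). Without GV3, 3 were higher (median 0.075), and without both libraries 1 was higher and 0 lower (median 0.054). For Vwf the log2 fold change of 0.40 was 0.077 without GV3. Ocln kept 0.23 without GV3 and 0.17 without both. Within lanes, the median of the 19 genes was 0.045 in lane 4, 0.085 in lane 6 and 0.064 in lane 8.

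The 3 blood genes tested were higher on control ASO at an unadjusted p under 0.05, beside 4.91% of all genes. Hbb-b1, a beta-globin, was at 81.2, 234, 69.2, 39 and 89.3 CPM in GU4, GV3, HC3, HD4 and HI1 and at 23.4 to 70.6 CPM (median 35.5) on saline. The highest saline mouse lay above HC3 and HD4 (log2 fold change 1.22, SE 0.41, limma adjusted p = 0.333; exact permutation p = 0.039). Hba-a2, an alpha-globin, and Alas2, the erythroid enzyme of haem synthesis, had log2 fold changes of 1.16 and 1.36. The globin genes have near-identical copies among which reads can be divided, so their values are uncertain. The list's median was 1.21 with all mice and 1.23 without GU4. Without GU4 and GV3 it was 0.73, and 0 of 3 genes had an unadjusted p under 0.05. Haemoglobin RNA in perfused tissue also depends on the blood left in vessels, whose part in this difference was not tested.

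**Figure D3:**
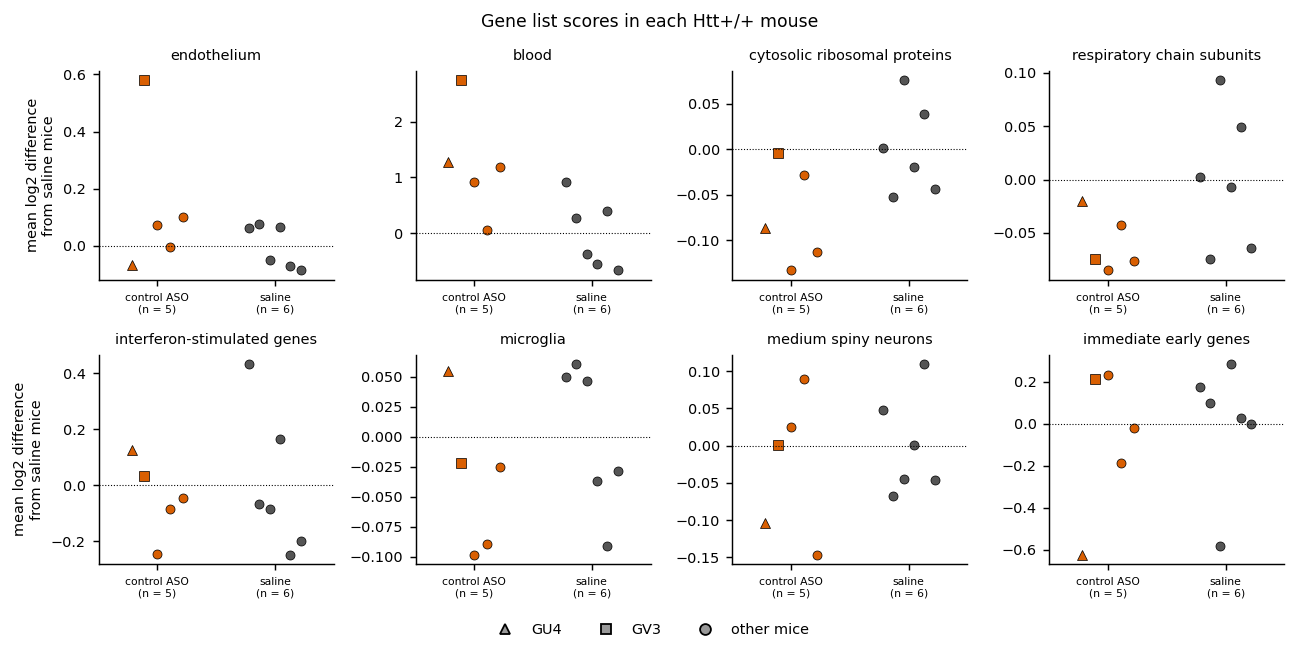
Mean log2 CPM difference from the 6 saline mice over the genes of 8 lists, 1 point per Htt+/+ mouse, with GU4 as a triangle, GV3 as a square and a dotted line at 0. GV3 is the highest mouse for the endothelium (0.58) and blood (2.74) lists, GU4 the lowest for immediate early genes (−0.62), and the groups overlap in all 8 panels.

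Genes of protein synthesis and of respiration were lower by small amounts. Of 77 cytosolic ribosomal protein genes tested, 33 were lower and 0 higher at an unadjusted p under 0.05, beside 6.88% of all genes lower, with a median log2 fold change of −0.067. Without GU4 there were 29 lower (median −0.065) and without GU4 and GV3 38 lower (median −0.089). Rpl36, a large subunit protein, was at 39.7, 44.5, 39.3, 46.7 and 39.5 CPM on control ASO and at 44.3 to 56.6 CPM (median 49.5) on saline, with overlap (log2 fold change −0.27, SE 0.064, limma adjusted p = 0.311). Rpl12, Rps2 and Rplp1 had log2 fold changes of −0.13, −0.11 and −0.20.

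Among 80 genes of the respiratory chain list, 28 were lower (35.0%) and 1 higher (1.25%), beside 6.88% and 4.91% of all genes (median −0.067). Without GU4, 30 were lower (37.5%) and 1 higher (1.25%), beside 6.05% and 4.69% of all genes. The list was made by symbol and holds subunits of complexes I to V and cytochrome c, along with Cox4nb, a neighbour of Cox4i1 that is not a subunit. Ndufb10, a subunit of complex I, was at 89.4, 91.4, 86.8, 89.4 and 85.9 CPM against 89.2 to 100 CPM (median 96.4) on saline (log2 fold change −0.12, SE 0.032, limma adjusted p = 0.333). Ndufs7 of complex I, Cox6a1 of complex IV and Atp5d of the ATP synthase had −0.23, −0.16 and −0.18. Both lists hold short transcripts: the respiratory chain list had a median length of 746 bases against 1880 over all tested genes of known length, and the ribosomal list a lower one still.

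The sign of a gene's difference moved with the base composition of its transcript. Over 14723 genes with a known GC content, the log2 fold change had a Spearman rho of −0.51 with GC content (−0.50 without GU4) and 0.29 with transcript length. These are descriptions across genes of the same libraries. In the tenth of genes lowest in GC content (33.7% to 43.1%) the median was 0.066, with 250 genes higher and 7 lower at an unadjusted p under 0.05. In the tenth highest in GC content (58.2% to 72.8%) it was −0.11, with 4 genes higher and 428 lower. Per mouse, the rho of the deviation in log2 CPM with GC content was −0.13, −0.086, −0.27, 0.15 and −0.40 in GU4, GV3, HC3, HD4 and HI1, and −0.24 to 0.38 (median 0.21) on saline.

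Lane was read from the sample titles, which do not define it, and lane and group were not balanced in this respect. Lane 5 held 2 control ASO mice and no saline mouse, and lane 3 held 1 saline mouse and no control ASO mouse. Over all 35 mice the median rho was −0.26 in lane 5 and −0.30 in lane 6, against 0.092 to 0.19 in the other 4 lanes. In each of lanes 4, 6 and 8, which held both groups, the control ASO mouse had a lower rho than the saline mice, but with 1 control ASO mouse in each the lane and the group could be separated only in part. With each mouse corrected for its trend with GC content, an alternative chosen after seeing the data, 501 genes were higher and 523 lower at an unadjusted p under 0.05 (of 14723), in place of 803 and 1115 in the same genes uncorrected, and 0 passed the adjusted test. Correction for length as well left 476 higher and 451 lower.

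The lists responded unevenly to these corrections. Endothelial genes stayed at 8 higher and 0 lower (median 0.13 after both), but 3 without GV3 after correction for GC content. With lane as a covariate 5 were higher (median 0.14), and with age as a covariate 7. Ribosomal protein genes went from 33 lower to 28 after correction for GC content and to 11 after correction for length as well (median −0.027), or 4 without GU4. Respiratory chain genes went from 27 lower in the same genes uncorrected to 24 and to 11 (median −0.022). Their count lower was also 11 with age as a covariate and 17 with lane as a covariate, where ribosomal protein genes had 32 and 25. Of the genes above, Jsrp1 went from −0.58 to −0.38, Slc9a3r1 from −0.25 to −0.16, Vegfb from −0.22 to −0.084, Slco1a4 from 0.25 to 0.17, Dab2 from 0.41 to 0.36 and S100a11 from 0.53 to 0.58. Whether composition and length shifted through library preparation or in the tissue was not tested.

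**Figure D4:**
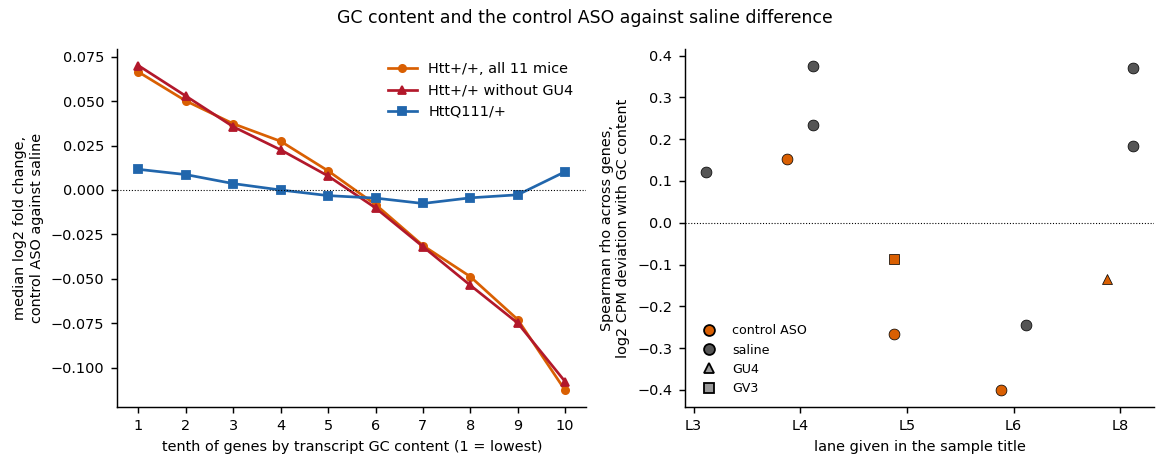
Left, median log2 fold change of control ASO against saline in 10 bins of genes by transcript GC content, for all 11 Htt+/+ mice, the same without GU4, and HttQ111/+ mice. Right, each Htt+/+ mouse's Spearman rho across genes between its log2 CPM deviation and GC content (GU4 a triangle, GV3 a square). Mice are placed by group and by lane as read from the sample titles. The Htt+/+ medians fall from 0.066 to −0.11. The control ASO mouse lies below the saline mice of its lane in lanes 4, 6 and 8.

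Of the immune genes, which phosphorothioate oligonucleotides can induce, the interferon-stimulated list stayed near the saline level. Of 29 interferon-stimulated genes 0 were higher and 0 lower at an unadjusted p under 0.05, with or without GU4 (median log2 fold change −0.042). Over all genes 4.91% were higher and 6.88% lower. Isg15, a ubiquitin-like interferon target, was at 0.977, 1.05, 0.546, 1.11 and 0.773 CPM on control ASO and at 0.900 to 2.06 CPM (median 1.09) on saline (log2 fold change −0.46, 95% interval −1.15 to 0.24). Ifit2 and Ifi27 had 0.14 and −0.36. The Htt ASO against the same saline mice gave a median of 0.68 for these 29 genes, and the 2 comparisons share all 6 saline mice.

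Sensors of nucleic acids gave 0 higher and 1 lower of 20 (5.0%, beside 6.88% of all genes), Irf3 (log2 fold change −0.15, limma adjusted p = 0.402). MHC class I and antigen processing genes gave 0 higher and 1 lower of 14 (7.14%). Without GU4, 2 were lower (14.3%, beside 6.05% of all genes). Their median was −0.070, and 0.44 for Htt ASO against the same saline mice. Without GU4, 2 of 13 cytokine and acute inflammation genes tested were higher (15.4%, beside 4.69% of all genes), Ch25h and Il1r1. With all mice 1 was higher (7.69%, beside 4.91%), Lcn2, the acute phase protein lipocalin-2. It was at 0.251, 2.46, 0.317, 0.0568 and 0.267 CPM on control ASO and at 0 to 0.264 CPM (median 0.115) on saline, with GV3 far above the rest (limma adjusted p = 0.422; exact permutation p = 0.108). Ch25h and Il1r1 were likewise highest in GV3, at 2.22 and 8.56 CPM. The cytokine list had a median of 0.091, with 11 of 13 genes above 0. Without GU4 it had 3 higher after correction for GC content (23.1%, beside 3.73% of all genes). After correction for length as well it had 4 (30.8%, beside 3.51% of all genes). Without GV3 it had 0 higher, with or without correction for GC content.

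Of 15 complement genes tested, 1 was higher (6.67%, beside 4.91% of all genes) and 2 were lower (13.3%, beside 6.88%) at an unadjusted p under 0.05. The counts were the same without GU4, and 0 passed limma's adjusted test. C1qc, a chain of the C1q complex made by microglia, was at 45.3, 44.4, 41.0, 44.8 and 39.8 CPM against 46.4 to 51.4 CPM (median 48.8), without overlap (log2 fold change −0.18, SE 0.067, limma adjusted p = 0.350). C1qb, another chain, had −0.14. Of 19 microglial genes 0 were higher and 2 lower (10.5%, beside 6.88% of all genes), Trem2 (−0.17) and Aif1, which encodes IBA1 (−0.20). The list's median was −0.024. Without GU4 there were 4 lower (21.1%, beside 6.05% of all genes, median −0.047).

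Other glial lists and neuronal lists are set beside 4.91% of all genes higher and 6.88% lower at an unadjusted p under 0.05. Without GU4 these shares were 4.69% and 6.05%. Astrocyte genes gave 0 higher and 2 lower of 16, or 12.5% (Fgfr3 −0.17), with 3 lower (18.8%) without GU4. Gfap overlapped between the groups (45.7 to 64.8 CPM on control ASO, 52.9 to 67.2 on saline). Of 8 reactive astrocyte genes tested 2 were higher, Lcn2 and Cp, the copper carrier ceruloplasmin (0.16), or 25.0%, and 0 without GU4. Myelin genes gave 0 of 18 in either direction, and 1 lower without GU4. Of 22 medium spiny neuron genes 0 were higher and 1 lower (0 lower without GU4), Gpr6, a receptor of indirect pathway neurons (−0.13, SE 0.052, limma adjusted p = 0.359). Drd2 and Adora2a, receptors of the same neurons, had −0.041 and −0.12, and Sst, the somatostatin of an interneuron class, had −0.14. The 15 genes of the list of huntingtin and genes that the Q111 allele alters gave 0 in either direction, with Drd1a at 0.050, Pde10a, the striatal phosphodiesterase, at 0.083, Islr2 at −0.18 and N4bp2, listed as B3bp, at 0.23.

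Immediate early genes, which neuronal activity induces within minutes, differed with the libraries included. Of 22 tested, 1 was higher and 3 lower with all mice (4.55% and 13.6%, beside 4.91% and 6.88% of all genes, median −0.15). Without GU4, 2 were higher and 1 lower (9.09% and 4.55%, beside 4.69% and 6.05% of all genes, median 0.012). Jun, the AP-1 subunit, was at 15.2, 18.6, 18.4, 18.6 and 16.5 CPM on control ASO against 19.4 to 23.1 CPM (median 21.3) on saline, without overlap (log2 fold change −0.27, SE 0.075, limma adjusted p = 0.333; −0.22 without GU4). Junb was at 16.2 CPM in GU4 and at 25.4 to 31.5 CPM in the other control ASO mice, against 25.2 to 41.1 CPM on saline. Nr4a3, an orphan nuclear receptor, had a log2 fold change of 0.58 (limma adjusted p = 0.416).

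Counts higher and lower were 0 and 0 of 10 for ependyma, of 10 for oligodendrocyte precursors, of 12 for pericytes and smooth muscle, of 12 for meninges and fibroblasts, and of 11 for septum, pallidum, thalamus and hypothalamus. Without GU4 the meninges and fibroblast list had 0 and 1. Over all genes the shares were 4.91% higher and 6.88% lower, or 4.69% and 6.05% without GU4. Interneuron genes gave 0 and 1 of 13 (Sst), or 1 and 0 without GU4, and cortical excitatory neuron genes 1 and 0 of 13. Glucocorticoid response genes gave 1 higher and 1 lower of 15, Pdk4 (0.23), a brake on pyruvate oxidation, and Mt1, metallothionein-1 (−0.13). Without GU4 that list gave 1 higher and 0 lower. Circadian clock genes gave 0 and 1 of 16, Dbp, a clock output factor (−0.28).

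Genes of proteins that handle oligonucleotides lay on both sides of 0. Of 21 genes for phosphorothioate-binding proteins and RNase H subunits, 2 were higher (9.52%) and 1 lower (4.76%) at an unadjusted p under 0.05 (median 0.028). Over all genes the shares were 4.91% and 6.88%. Anxa2, annexin A2, which binds phosphorothioates and moves them through endosomes, was at 10.7, 21.2, 9.92, 11.6 and 10.4 CPM on control ASO and at 7.35 to 10.4 CPM (median 9.54) on saline. GV3 was again the highest mouse (log2 fold change 0.40, SE 0.13, limma adjusted p = 0.333; 0.21 without GV3). Sfpq, a paraspeckle protein, had 0.14 and Rnaseh2c, a subunit of RNase H2, −0.31. Of 18 uptake and endosome genes 3 were higher (16.7%) and 4 lower (22.2%), beside 4.91% and 6.88% of all genes, with a median of −0.0023. After correction for GC content 1 was higher (5.56%) and 0 lower, beside 3.4% and 3.55% of all genes. Among the 18 were Cltc, the clathrin heavy chain (0.092), Clta, a clathrin light chain (−0.10), and Gcc2, a golgin (0.11). Stress response genes gave 0 higher and 2 lower of 15 (13.3%, beside 6.88% of all genes), Trib3 (−0.45, limma adjusted p = 0.333) and Atf4 (−0.10). Without GU4 there were 4 lower (26.7%, beside 6.05% of all genes). Of 13 p53 targets 2 were higher (15.4%, beside 4.91% of all genes), Zmat3 (0.11) and Trp53inp1 (0.17).

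The same treatments were compared in HttQ111/+ mice (6 on control ASO, 6 on saline), which share no animal with the Htt+/+ groups. There 0 of 17639 genes (0%) passed limma's adjusted test, 1 was called by DESeq2 (Nsddr), and 219 (1.24%) were higher and 293 (1.66%) lower at an unadjusted p under 0.05. The log2 fold changes of the 2 genotypes had a Spearman rho of −0.043 and a Pearson r of −0.15 across the 15083 genes, which are not independent replicates. The rho with GC content was −0.025 in HttQ111/+ mice. The difference between the genotypes in the treatment contrast, tested as an interaction, passed for 0 genes (0%) in limma and 1 in DESeq2 (Prl). Its smallest limma adjusted p was 0.735, and 1169 genes (6.63%) had an unadjusted p under 0.05.

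The leading genes of the Htt+/+ comparison were near 0 in HttQ111/+ mice. The log2 fold change there was 0.040 for Slco1a4, 0.026 for Dab2, −0.13 for S100a11, −0.021 for Slc9a3r1, −0.011 for Vegfb, 0.098 for Jsrp1 and 0.082 for Jun. Unadjusted interaction p-values from limma were 0.00925, 0.00447, 0.00143, 0.00527, 0.0113, 0.000442 and 0.00215 for these genes, none of them past the adjusted threshold. These genes were chosen for a small p in the Htt+/+ contrast, which enters the interaction, so small values are built in and are given as a description. Endothelial genes gave 0 higher and 1 lower of 19 (median −0.057), blood genes a median of −0.70, ribosomal protein genes 0 higher and 1 lower of 77 (median −0.034) and respiratory chain genes 0 and 0 of 80 (median −0.0048). The Htt ASO was also set against the same Htt+/+ saline mice. There the log2 fold change was 0.46 for Dab2, 0.63 for Thbd, 0.18 for Slco1a4 and −0.16 for Jsrp1. Values of the other leading genes with that ASO are not reported here. List medians were 0.19 for endothelium, 0.91 for blood, −0.059 for ribosomal proteins and −0.025 for the respiratory chain. Of the 19 endothelial genes 5 passed limma's adjusted test with the Htt ASO, beside 128 of all 17639 genes. Both ASO comparisons share the 6 saline mice, so they are not independent.

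**Figure D5:**
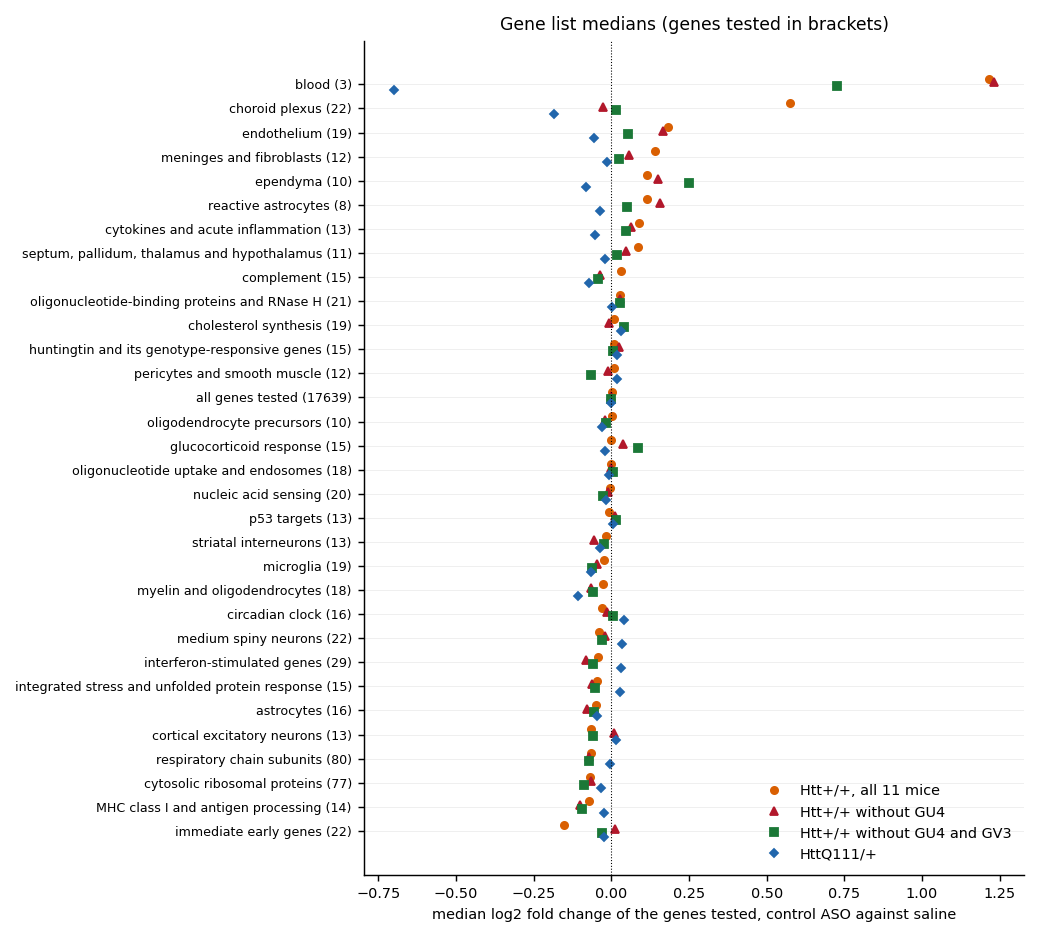
Median log2 fold change of control ASO against saline over the tested genes of 31 lists and over all genes, for all 11 Htt+/+ mice, without GU4, without GU4 and GV3, and for 12 HttQ111/+ mice. Blood (1.21, and −0.70 in HttQ111/+ mice), choroid plexus (0.57, and −0.026 without GU4) and endothelium (0.18) lie highest, and most other lists lie within 0.1 of 0.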

How the data were processed

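Per the labels, stranded TruSeq mRNA libraries of mouse striatum were sequenced. The authors aligned reads with Bowtie 0.12.9 to the mm9 (MGSCv37) transcriptome and deposited expected counts per gene from RSEM 1.1.18, neither rounded nor scaled. Reads that fit several genes are thus already divided by estimation, and antisense partners depend on the authors' strand setting, which is not given in the sources used here.

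Here 17639 of 22099 genes were kept (filterByExpr over 6 groups, minimum count 10, total 15), scaled by TMM and fitted over all 35 mice with voom and limma 3.58.1 (R 4.3.3), 1 mean per group, with Benjamini-Hochberg adjustment over all genes and a threshold of 0.05. CPM use TMM sizes, and log2 CPM a prior count of 2. The exact test covers all 462 splits of the 11 mice and is two-sided. The edgeR 4.0.16 and DESeq2 1.42.0 fits used rounded values. Code was tested on simulated data. Mouse pairs within groups differed by more than sampling noise (chi-square per degree of freedom 4.81 to 16.5). Depth was even, and intervals come from the spread between mice.

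The members and the gene lists were chosen with earlier results of these data known. Named genes were the 10 of smallest p each way without GU4 (mean of at least 1 CPM), up to 4 per list by p with the defining markers, the transcripts the study measured, 6 choroid plexus genes, non-overlapping genes past a log2 fold change of 0.5, and the largest folds. Lane is read from the sample titles (L3 to L8), which do not define it. Lengths and GC content were means over a gene's GENCODE transcripts (GRCm38.p6), for 83.5% of tested genes. Genes were matched to them by symbol or by a RefSeq synonym. Both sources were used for names and composition only. Alternatives covered scaling, filters, lane, age, the groups fitted, mouse name letters as a random block, quality weights and each mouse left out. Correction for GC content or length, and leaving out GV3 with GU4, were added after seeing the data. Results for some genes are not reported here.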

Additional observations from a re-analysis of the deposited data

Results flagged for a closer look

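Gaps between mice were examined in 250 groups of 5 or 6 (values of the named genes and scores of 31 lists), and 24 held a mouse far from the others. Chance gives about 1 in 20 for genes not chosen by their values, so that rate cannot be set beside the 24. The named genes included choroid plexus genes already known to be high in GU4 and genes chosen by p or fold in these mice. Scores also share genes with the named genes. Of the 24, 8 concerned GU4: Ttr 1460, Folr1 10.6, Kl 58.0, Kcne2 7.01, Clic6 47.2 and Enpp2 910 CPM and the choroid plexus score of 2.78 were high, and 1700028K03Rik (11.5 CPM) was low. In GV3, Vwf was 101, Pecam1 40.0, Flt1 118, Thbd 17.3, Anxa2 21.2, Cdh5 23.9, Ly6c1 69.3, A130022J15Rik 52.1 and Xlr 1.59 CPM, with an endothelium score of 0.58, each the highest of the 5 control ASO mice. In HI1, B3bp (N4bp2) was at 10.0 CPM, next to 7.98.

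Among saline mice, GV4 was low for Islr2 (25.6 CPM) and S100a11 (2.15 CPM). HQ3 had an astrocyte score of −0.12, with the nearest saline mouse at 0.0063. HM3 had a score of −0.58 for immediate early genes and of −0.067 for oligonucleotide-binding proteins and RNase H. No explanation was tested for these mice.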

How the results depend on the processing

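No gene was called in the Htt+/+ comparison, in the HttQ111/+ comparison or in the interaction under any alternative run but DESeq2, which called 4, 1 and 1 genes; leaving out each of the 11 mice in turn gave 0 to 0. The 4 were Slco1a4 (0.25), Dab2 (0.43), Slc9a3r1 (−0.25) and Jsrp1 (−0.58 on the log2 scale), and the others were Nsddr in HttQ111/+ mice (adjusted p = 0.000143 by DESeq2) and Prl for the interaction (adjusted p = 0.018 by DESeq2), named after their values were seen. The cause was not tested. Without GU4 the count was 0 also with lane as a covariate, with correction for GC content and without GV3. Genes at an unadjusted p under 0.05 numbered 2080, and 1257 without the saline mouse HM3, 3035 without the saline mouse HE3, 1277 without HI1, 1024 after correction for GC content, 937 with lane as a covariate and without GU4, and 1391 with age as a covariate. Folr1 changed sign with lane as a covariate and without GU4 (−0.050), and Cox6a1 after correction for GC content and length (0.014, and 0.0029 without GU4). Among named genes with no unadjusted p under 0.05, the sign also changed in at least 1 alternative for Ttr (to −1.09), Kl (−0.41), Kcne2 (−0.44), Enpp2 (−0.099), Clic6, Pecam1 (−0.068), Flt1 (−0.041), Cldn5 (0.064), Adora2a (0.031), Drd2 (0.022), Ppp1r1b (0.0062), Hdh and Lass1. List medians for endothelium (0.053 to 0.20), blood (0.73 to 1.5), ribosomal proteins (−0.089 to −0.022) and the respiratory chain (−0.076 to −0.022) kept their sign in all 33 alternatives, and choroid plexus changed it in 4. No paired analysis was possible because replicate numbers were given in accession order and pair no mice. With 5 against 6 mice the exact test cannot go below 0.00433, and genes under 1 CPM have wider intervals than those given.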
